A study of Mus musculus with 3 samples.

Results

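Casein-rich luminal progenitor cells of the mouse mammary gland were chosen from 3 single-cell RNA libraries by their milk protein RNA, and there were 824 of them among 8081 luminal progenitor cells and 26320 kept cells in all. A cell was kept with 500 or more detected genes and under 10% mitochondrial UMIs (unique molecular identifiers, each marking 1 captured RNA molecule). It was called a luminal progenitor when Csn3, Elf5, Kit and Aldh1a3 together had 5 or more UMIs and at least 3 times the UMIs of both a basal set (Krt5, Krt14, Krt17, Acta2) and a hormone-responsive set (Prlr, Areg, Pgr, Esr1, Cited1). It was called casein-rich when Csn2, Csn1s1 and Csn1s2a made up 3% or more of its UMIs. These rule genes chose the cells, so their values are a description with no test. The casein-rich cells were compared with the other luminal progenitor cells of the same library.

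All 3 libraries belong to 1 group of FVB/NJ females aged 10 weeks, with no treatment, transgene or other genotype named in the labels. Glands number 4 from 4 mice were pooled and digested, and live epithelial cells were sorted after staining for CD49f, EpCAM, CD31, CD45 and Ter119. The labels do not say whether each library had its own pool of mice. The p-values rest only on the spread between libraries, which may be technical. That spread was largely shared over genes, so a p-value does not by itself measure a gene's own spread. Pregnancy, mating and oestrous stage are not in the labels. The libraries held 18584156, 27220670 and 30984706 UMIs, and any 2 of them shared between 77 and 146 cell barcodes.

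Luminal progenitors are the secretory, hormone-receptor-poor lineage of the mammary epithelium, and in pregnancy they give rise to the alveolar cells that make milk. Caseins are the phosphoproteins that assemble into the micelles of milk. Their transcription is driven by prolactin, whose receptor activates the kinase Jak2 and the transcription factor Stat5, together with the glucocorticoid receptor and Elf5. Stat5 binds palindromic elements of the form TTCNNNGAA.

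Promoter sequences are shown for the 3 caseins that chose the cells and for Glycam1, a further secreted milk protein gene with a large difference between the classes. Each sequence is the 150 bases before the RefSeq transcription start, read 5′ to 3′ on the gene's own strand (GRCm38.p6). Capitals mark TTCNNNGAA in Csn2, Csn1s1 and Glycam1, and TGTTCT, the core of glucocorticoid receptor elements, in Csn1s2a.
Csn2, chr5:87699426-87699575, minus strand: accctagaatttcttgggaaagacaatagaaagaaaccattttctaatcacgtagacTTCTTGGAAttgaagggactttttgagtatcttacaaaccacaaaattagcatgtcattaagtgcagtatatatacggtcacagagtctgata
Csn1s1, chr5:87666058-87666207, plus strand: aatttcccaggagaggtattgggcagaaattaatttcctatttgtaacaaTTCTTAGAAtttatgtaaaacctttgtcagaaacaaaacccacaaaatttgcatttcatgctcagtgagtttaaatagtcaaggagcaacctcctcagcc
Csn1s2a, chr5:87774300-87774449, plus strand: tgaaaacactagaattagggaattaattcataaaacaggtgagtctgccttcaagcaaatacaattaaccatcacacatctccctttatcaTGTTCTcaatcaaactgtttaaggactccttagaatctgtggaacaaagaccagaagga
Glycam1, chr15:103565082-103565231, minus strand: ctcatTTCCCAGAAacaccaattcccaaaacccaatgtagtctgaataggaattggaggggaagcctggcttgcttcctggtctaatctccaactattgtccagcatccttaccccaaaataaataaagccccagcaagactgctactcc
The TTCNNNGAA match began 93 bases before the start in Csn2, 100 in Csn1s1 and 145 in Glycam1. The TGTTCT match began 59 bases before the start in Csn1s2a. No TTCNNNGAA was found in the 250 bases before the start of Csn1s2a, Wap, Lalba, Saa1, Saa2, Pigr, Lao1, Fabp3 or Spp1. Both strands were searched, and the end of a TGTTCT match can fall within a TTCNNNGAA match. TTCNNNGAA was present in a window of this length in 2197 of 27025 genes (8.13%), and TGTTCT in 4912 (18.2%). Csn2, Csn1s1, Csn1s2a, Csn1s2b and Csn3 lie between positions 87666208 and 87932665 of chromosome 5.

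The casein-rich cells were almost all in libraries 2 and 3. Library 1 held 5 among 3222 luminal progenitor cells (0.155%, exact 95% binomial interval 0.0504 to 0.362%). Library 2 held 362 among 1608 (22.5%, 20.5 to 24.6%), and library 3 held 457 among 3251 (14.1%, 12.9 to 15.3%). The intervals cover counting error only. Depth in the other luminal progenitor cells was a median of 2855 UMIs in library 1, 3430 in library 2 and 3262 in library 3. The casein-rich cells had medians of 2910, 4731.5 and 3877 UMIs and of 1380, 1836 and 1566 detected genes.

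The casein share was continuous across the threshold. Other luminal progenitor cells had a median casein share of 0% in library 1, 0.415% in library 2 and 0.278% in library 3. Under 0.1% casein lay 3031 luminal progenitor cells of library 1, 382 of library 2 and 979 of library 3. Just outside the threshold, at 2 to 3%, lay 6, 163 and 231 cells, and just inside it, at 3 to 4%, lay 3, 102 and 152. The casein-rich cells had medians of 3.99%, 5.04% and 4.87%, and their highest cells reached 4.61%, 16.6% and 21.8%. With the threshold at 1% the shares of luminal progenitor cells became 1.15%, 46.5% and 34.2%, and at 5% they became 0%, 11.4% and 6.74%.

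**Figure D1:**
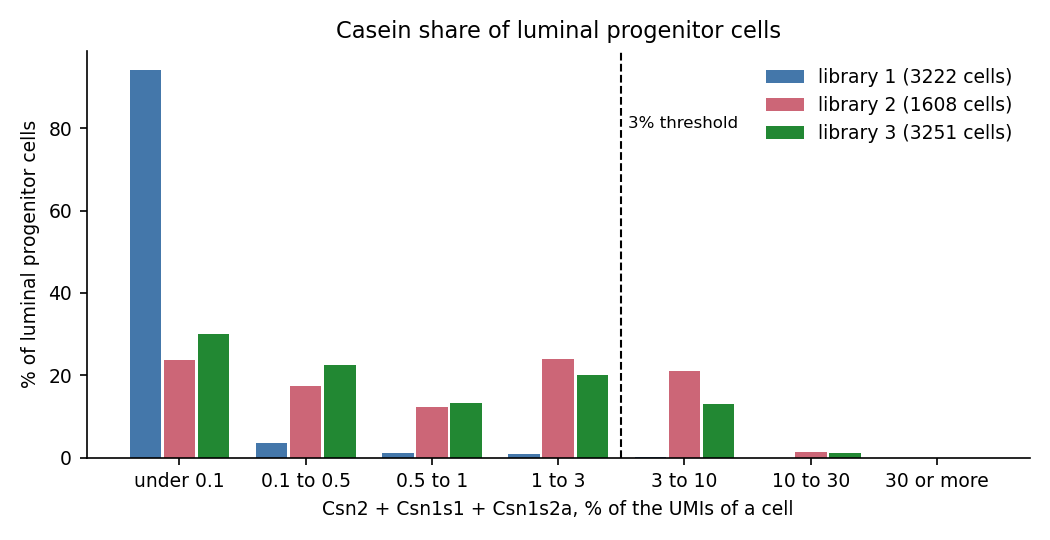
Share of the luminal progenitor cells of each library (vertical axis, %) in bins of the casein share of a cell's UMIs (horizontal axis, %), 1 bar per library. The dashed line is the 3% threshold. Library 1 lies almost wholly under 0.1%, while 362 and 457 cells of libraries 2 and 3 lie past the line.

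The 3 caseins of the rule were not raised in equal proportion. Csn2 encodes beta-casein and reached 18226, 25563 and 25058 CPM (the usual scaling of a gene's UMIs to the total, here of all UMIs) in the casein-rich cells of libraries 1, 2 and 3, against 133, 3934 and 2230 in the other progenitors. Csn1s1 encodes alpha-S1-casein and stood at 13991, 13702 and 16738 CPM against 202, 4081 and 3559. Csn1s2a encodes an alpha-S2-like casein and stood at 7252, 18977 and 17087 CPM against 34.9, 1299 and 603. Csn1s2a had the widest ratio between the classes in each library. Basal cells had 330 and 153 CPM of Csn2 in libraries 2 and 3. At median depths of 2203 and 1763 UMIs, 33.0% and 20.4% of basal cells held a Csn2 UMI. Free RNA as a source of these UMIs was not tested.

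Cells differed in their mix of caseins. Csn2 made up a median of 43.1% of a cell's UMIs of these 3 caseins in library 2 and 42.1% in library 3. Csn1s1 made up 23.4% and 30.1%, and Csn1s2a made up 31.8% and 26.4%. Csn2 was the most abundant of them in 250 of 362 cells of library 2 and in 280 of 457 of library 3. Csn1s2a led in 93 and 88 cells and Csn1s1 in 19 and 89. Csn1s2a had no UMI in 9 and 22 of the casein-rich cells.

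The progenitor genes of the rule differed among themselves. Csn3 encodes kappa-casein, which caps the micelle, and stood at 7444, 5357 and 8513 CPM of all UMIs in the casein-rich cells and at 5962, 3775 and 4860 in the others. Elf5, a transcription factor of the secretory lineage, stood at 642, 569 and 660 CPM against 532, 540 and 560. Kit, a receptor tyrosine kinase of luminal progenitors, stood at 128, 171 and 140 CPM against 312, 313 and 245. Aldh1a3, a retinaldehyde dehydrogenase used as a progenitor marker, had a UMI in 4 of 362 casein-rich cells of library 2 (1.10%) and 17 of 457 of library 3 (3.72%). The share was 18.4% and 16.1% in the other progenitors and 1.02% and 1.13% in basal cells. All 4 genes count toward the same sum of progenitor UMIs, so a cell with more Csn3 can enter with less Kit or Aldh1a3, and nothing is read from these levels.

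The rule did not use 4 further markers, Wap, Lalba, Pigr and Saa1, and not every casein-rich cell carried each of them. Because these were given as markers of these same cells, they have values and no test against the other progenitors. All levels from here on are CPM of the UMIs outside the rule genes, so that the caseins do not lower the rest. Wap, whey acidic protein, stood at 67.4 (1 UMI), 154 and 105 CPM in libraries 1, 2 and 3, against 1.87, 13.6 and 13.6 in the other progenitors. Lalba, alpha-lactalbumin, the regulatory subunit of lactose synthase, stood at 2495, 5635 and 6213 CPM against 551, 1767 and 1489. Both were higher in the casein-rich cells of each library.

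Wap RNA was found in a minority of the cells. A Wap UMI was present in 27.9% and 19.0% of the casein-rich cells of libraries 2 and 3, in 3.93% and 4.08% of the other progenitors and in 0.456% and 0.248% of basal cells. After thinning each cell to 2000 UMIs outside the rule genes, the casein-rich shares were 18.8% and 13.5%, with 33 and 71 shallower cells left out. Casein-rich cells were deeper, with medians of 4731.5 and 3877 UMIs against 3430 and 3262 in the other progenitors. Basal cells had medians of 2203 and 1763. Shares given without thinning, here and below, do not take out this difference in depth. Lalba was found in 83.1% and 97.4% of the casein-rich cells and in 58.7% and 61.7% of the others. Its basal share was 11.4% and 9.93%.

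Pigr and Saa1 differed by class in libraries 2 and 3 and had no UMI in the 5 cells of library 1. Pigr encodes the receptor that carries polymeric IgA across the epithelium into milk. It stood at 198 and 236 CPM against 40.4 and 77.0, and was found in 47.5% and 46.0% of the casein-rich cells against 11.7% and 19.6% of the others. Saa1 encodes an acute-phase serum amyloid A and stood at 70.2 and 210 CPM against 17.1 and 29.8. Saa1 was found in 9.94% and 14.4% of the casein-rich cells and 2.49% and 2.47% of the others, so most of the cells were without it at this depth. In basal cells the share with a UMI was 0.642% and 0.632% for Pigr and 0.539% and 0.451% for Saa1. Saa1 and Saa2 are near-identical neighbours, and their reads can be divided between them.

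Across all genes outside the rule, edgeR's quasi-likelihood test on summed UMIs, with library as a block, found 166 of 10839 tested genes higher in the casein-rich cells (1.53%) and 175 lower (1.61%), 3.15% in all. A call needed an adjusted p (Benjamini-Hochberg) below 0.05 and a change of at least 1 on the log2 scale. At 3.15% called over all genes, a short gene list with no call says little about its genes. The fit had 2 residual degrees of freedom and an infinite prior, so the variance came from a trend over all genes. Very small p-values therefore do not show that the libraries were alike for a gene. Genes of milk proteins, lipid handling and transport were among those higher. Of the genes described for luminal progenitors, 5 were lower and 2 higher. Of the calls, 157 and 175 had the same sign in libraries 2 and 3. The 5 cells of library 1 had no UMI for 128 and 147 of the called genes, and without library 1 the counts were 136 (1.28% of 10663) and 130 (1.22%), of which 134 and 129 were also called with it. With library totals in place of trimmed-mean (TMM) scaling the calls were 139 higher and 248 lower, and without the library block they were 7 and 10.

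Secreted milk proteins and hydrolases included 5 called higher and 1 called lower among 15 tested, with a median log2 fold change of 0.59 against -0.02 over all genes tested. Lao1, an L-amino-acid oxidase secreted into mouse milk, had 405 (6 UMIs), 224 and 356 CPM in the casein-rich cells against 52.6, 27.7 and 32.1. Lao1 rose 9.54-fold (log2 3.25, SE 0.19, adjusted p = 2.74e-64) and was higher in the casein-rich cells of each library. Spp1, osteopontin, had 7349, 1208 and 4487 CPM against 1943, 769 and 696 and rose 2.82-fold (log2 1.5, SE 0.44, adjusted p = 0.015). Folr1, a folate receptor of the kind shed into milk, had 539, 290 and 489 CPM against 115, 108 and 178 (log2 1.51, SE 0.19, adjusted p = 4.89e-13). Lpl, lipoprotein lipase, had 135 (2 UMIs), 95.8 and 69.5 CPM against 7.49, 45.0 and 20.6 (log2 1.51, SE 0.18, adjusted p = 4.00e-14). The fifth was Igfals. Trf, transferrin, a major milk iron carrier, was abundant in both classes, with 15845, 6902 and 9516 CPM against 7475, 5429 and 4510. It was higher in the casein-rich cells of each library but did not pass (log2 0.59, adjusted p = 0.677). Without library 1 its edgeR log2 change of 0.78 passed the adjusted p (0.00175) and not the fold threshold. Ltf, lactoferrin, fell by 1.03 on the log2 scale (SE 0.33, adjusted p = 0.0302), with 1349, 295 and 495 CPM against 1399, 880 and 796.

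Glycam1 was the only member of the major milk protein list that could be tested, and it was called. It encodes a mucin-like secreted milk protein and had 0, 1107 and 32.1 CPM in the casein-rich cells against 4.40, 25 and 8.98 (log2 4.17, SE 0.26, adjusted p = 1.23e-54). A Glycam1 UMI was present in 144 of 362 casein-rich cells of library 2 (39.8%) and 32 of 457 of library 3 (7%). The other progenitors had it in 4.17% and 2.47% and basal cells in 1.35% and 1.02%. Without library 2 the log2 fold change was 1.91, and without library 3 it was 4.82. Genes with no UMI in library 1 and a positive change, other than Saa2, fall outside the rule for naming genes. Glycam1, Thrsp, Cyp24a1, S100a8, Atp2c2, Mt1, Trf, Scd1, Slc2a1, Runx2, Rspo1, Ccnd1, Irf7, Ifi27l2a, Gbp2, Apod, Fcgbp, the globins and genes named only to complete a count were chosen after their values were seen.

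Lipid genes of milk fat moved unevenly. Fatty acid and triglyceride synthesis had 2 called higher and 0 lower of 24 tested, with a median log2 fold change of 0.67 and 21 positive values. Thrsp, which promotes lipogenesis in lactating mammary cells, had 0, 296 and 224 CPM against 7.39, 80.6 and 68.8 and rose (log2 1.86, SE 0.17, adjusted p = 6.80e-24). Fasn, fatty acid synthase, had 405 (6 UMIs), 292 and 228 CPM against 94.4, 139 and 133 (log2 1.02, SE 0.18, adjusted p = 1.46e-06). Fasn lay at the fold threshold, with a log2 value of 0.99 and no call without library 1. Scd1, stearoyl-CoA desaturase, was at 0.96 and not called. Cholesterol synthesis and uptake had 0 of 19 called, 12 negative values and a median of -0.14. With 3.15% called over all genes tested, no call in so short a list says little about sterol genes.

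Proteins of the milk fat globule had 2 called higher and 0 lower of 13 tested, with a median of 0.37. Fabp3, the heart-type fatty acid binding protein, had 135 (2 UMIs), 57.4 and 4.09 CPM against 3.28, 3.95 and 0.399, a 14.7-fold rise (log2 3.88, SE 0.33, adjusted p = 1.19e-28). In library 3 this rested on 7 UMIs against 4. Its mean over the libraries reached the 50 CPM for naming only through the 2 UMIs of library 1. Reads can be divided between Fabp3 and its pseudogene Fabp3-ps1, which had 12 UMIs in the casein-rich cells of library 2. Btn1a1, butyrophilin, which coats the secreted fat globule, had 1349, 649 and 1229 CPM against 457, 388 and 500 (log2 1.01, SE 0.30, adjusted p = 0.0171). Xdh, xanthine oxidoreductase, its partner in the globule coat, had 337 (5 UMIs), 175 and 216 CPM against 119, 117 and 118, a log2 change of 0.81 that passed the adjusted p (0.000262) and not the fold threshold. Abhd5, a co-activator of triglyceride lipase on lipid droplets, was called outside the lists (log2 1.40, SE 0.17, adjusted p = 9.40e-14), with 135 (2 UMIs), 233 and 193 CPM against 33.8, 79.9 and 88.9.

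Ion and nutrient transport had 5 called higher and 1 lower of 19 tested, with a median of 0.51. Car2, carbonic anhydrase 2, had 270 (4 UMIs), 225 and 219 CPM against 37.9, 91.1 and 82.7 (log2 1.45, SE 0.17, adjusted p = 1.57e-14). Atp2c2, a Golgi calcium and manganese pump of the secretory pathway, had 0, 47.0 and 43.8 CPM against 12, 12.7 and 15.5 (log2 1.72, adjusted p = 5.06e-13). The others called were Folr1, Car6 and Slc34a2, a phosphate carrier at the fold threshold (log2 1.00, and 0.99 with no call without library 1). Slc5a8, a sodium-coupled monocarboxylate transporter, was the 1 called lower, with 0, 12.2 and 12.9 CPM against 46.4, 84.3 and 45.2 (fell by 2.26 on the log2 scale, SE 0.25, adjusted p = 3.26e-16). Lactose synthesis and glucose supply had 0 of 11 called and a median of 0.19, with Slc2a1, the glucose transporter GLUT1, at 0.90.

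**Figure D2:**
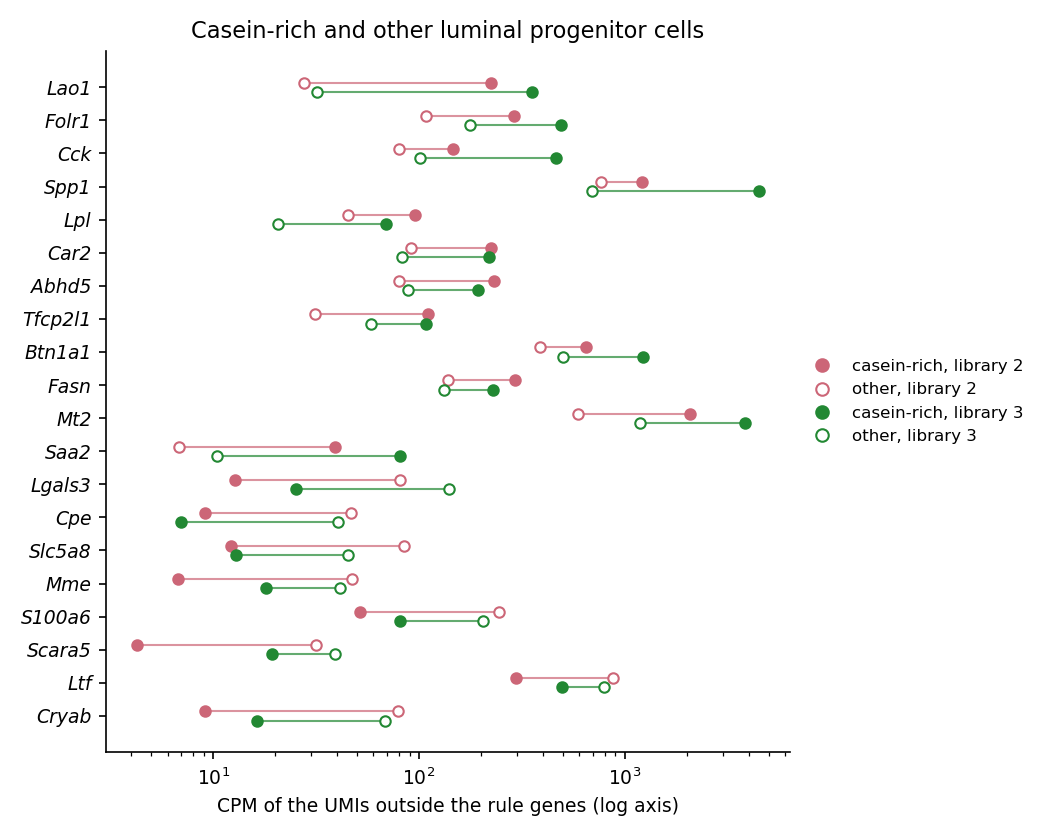
Levels of 20 named genes (horizontal axis, CPM of the UMIs outside the rule genes, log axis) in libraries 2 and 3, with 1 row per gene. Filled points are casein-rich cells and open points the other luminal progenitor cells of the same library, each point being 1 sum per library with no error bar. The upper 12 genes lie to the right in the casein-rich cells and the lower 8 to the left, in both libraries.

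Genes of the secretory machinery had small positive values and no call. With 3.15% called over all genes tested, no call in lists this short says little. Translocation and folding in the endoplasmic reticulum had 0 of 28 called, 28 positive values and a median of 0.30. Golgi traffic and exocytosis had 0 of 25 called, 24 positive values and a median of 0.27. The unfolded protein response list had 0 of 14 called and a median of 0.27. Nuclear genes of oxidative phosphorylation had 0 of 26 called, 25 positive values and a median of 0.31. Translation factors had 0 of 16 called and a median of -0.13.

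No gene of the prolactin pathway list was called among 21 tested, and the list had a median of 0.09. Over all genes tested 3.15% were called, so no call in so short a list says little about the pathway. The receptor gene Prlr is a rule gene and was not tested. Stat5a had 135 (2 UMIs), 142 and 112 CPM in the casein-rich cells against 79.0, 126 and 83.9 (log2 0.36, SE 0.17, adjusted p = 0.252). Stat5b was at 0.23 (SE 0.17, adjusted p = 0.592) and Jak2 at 0.00 (SE 0.22, adjusted p = 0.998). Cish, a feedback inhibitor and direct Stat5 target, had 202 (3 UMIs), 112 and 116 CPM against 44.6, 74.4 and 90.4. Its log2 change of 0.57 (SE 0.17) passed the adjusted p (0.0153) and not the fold threshold. Socs2, another inhibitor of the pathway, was at -0.37 (SE 0.33, adjusted p = 0.66). Without library 2, Stat5b was at -0.028 and Jak2 at -0.61, so neither has a settled direction.

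Named genes outside the lists included Tfcp2l1 and Cck. Tfcp2l1, a grainyhead-family transcription factor, had 135 (2 UMIs), 111 and 109 CPM against 39.9, 31.4 and 58.4 (log2 1.37, SE 0.17, adjusted p = 4.95e-13). Cck, the peptide hormone cholecystokinin, had 405 (6 UMIs), 147 and 465 CPM against 136, 79.7 and 101 (log2 1.62, SE 0.19, adjusted p = 3.21e-15). Fbxw4, an F-box protein, was also called (log2 1.36, SE 0.17). Gm12863, an antisense RNA on chromosome 4 at 118954274 to 118954919, had a log2 fold change of 4.39 (SE 0.44), resting on 3, 9 and 8 UMIs. It reached the level for naming only through the 202 CPM of the 5 cells in library 1, against 5.49 and 4.67 CPM in libraries 2 and 3, and without library 1 it was at 3.52. It lies beside Lao1 (118961578 to 118968912), and the labels do not state whether the counting used strand.

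Acute phase and antimicrobial genes moved both ways, with 5 called higher and 2 lower of 19 tested and a median of 0.24. Saa2 had 0, 39.1 and 80.6 CPM in the casein-rich cells against 1.5, 6.80 and 10.5 (log2 2.90, SE 0.22, adjusted p = 3.25e-37). It can share reads with Saa1, a given marker of these cells, so this call is not independent of that marker. S100a8, a subunit of calprotectin, had 0, 39.1 and 42.1 CPM against 1.40, 6.15 and 7.28 (log2 2.66, SE 0.24, adjusted p = 1.03e-25). S100a8 is also a neutrophil marker, and the neutrophil genes S100a9, Csf3r, Cxcr2 and Retnlg had no UMI in any casein-rich cell. The others called higher were Cfb, Il1rn and Lrg1, and Ptx3 fell with Ltf. Lcn2, lipocalin 2, had 4585, 1423 and 2755 CPM against 4258, 1672 and 1752, and was higher in libraries 1 and 3 and lower in library 2 (log2 -0.05, SE 0.44, adjusted p = 0.979). Chemokines and NF-kB feedback genes had 0 of 18 called and a median of 0.07.

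Mt2 was the 1 gene called among 13 glucocorticoid-induced genes, whose median was 0.32. It encodes a metallothionein and had 472 (7 UMIs), 2080 and 3840 CPM in the casein-rich cells against 227, 593 and 1188 (log2 1.53, SE 0.44, adjusted p = 0.0116). Mt1, its neighbour, had 472, 4248 and 7346 CPM against 541, 1494 and 2700. It was not called (log2 1.03, adjusted p = 0.269), and without library 1 it was (log2 1.54, adjusted p = 1.60e-09).

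Genes described for luminal progenitors moved both ways, with 5 called lower and 2 higher of 22 tested and a median of -0.22. The list was chosen with earlier results of these data known, so its calls are not independent of them. Cells with more Csn3 can meet the rule with less Kit or Aldh1a3. Whether this also lowers genes of this list was not tested. Scara5, a ferritin-binding scavenger receptor, had 0, 4.27 and 19.3 CPM against 187, 31.6 and 39.2 (fell by 1.57 on the log2 scale, SE 0.28, adjusted p = 1.29e-06). Runx2, a Runt transcription factor, had 0, 3.66 and 2.34 CPM against 27.1, 17.8 and 17.1 (fell by 2.48, SE 0.42, adjusted p = 3.73e-07). Rspo1, a secreted enhancer of Wnt signalling, had 202 (3 UMIs), 145 and 28.0 CPM against 64.1, 265 and 102, and fell by 1.12 (SE 0.19, adjusted p = 4.52e-07), though it was higher in the 5 cells of library 1. The other 2 were Ltf and Papln. Cyp24a1, the enzyme that degrades active vitamin D, was called higher with Itgb3. It had 0, 129 and 150 CPM against 3.65, 45.0 and 43.6 (log2 1.75, SE 0.17, adjusted p = 1.81e-22), and a UMI in 26.8% and 24.3% of the casein-rich cells against 8.59% and 9.16% of the others.

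The other named lower genes belong to no fixed list. Lgals3, galectin-3, had 67.4 (1 UMI), 12.8 and 25.1 CPM in the casein-rich cells against 79.4, 80.6 and 140 (fell by 2.43, SE 0.23, adjusted p = 3.96e-24). Cryab, a small heat shock protein, had 0, 9.16 and 16.4 CPM against 79.7, 78.8 and 68.1 (fell by 2.44, SE 0.25). Cpe, carboxypeptidase E, fell by 2.31 (SE 0.29), Mme, a membrane peptidase, by 1.75 (SE 0.26), Gm266 by 1.69 (SE 0.22) and S100a6, a calcium-binding protein, by 1.68 (SE 0.20). These 6 were lower in the casein-rich cells of libraries 2 and 3. In library 1 the sign was the same but rested on 0 UMIs of Cryab, Mme and Gm266. Lgals3 and Cpe had 1 UMI there and S100a6 had 2, too few to show a direction. Luminal keratins and junction genes had 1 called lower, Krt23, and 0 higher of 21 tested, with a median of -0.10.

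Calls were lost when a library was left out, in some genes with the fold change little moved. Of the 25 named genes that were called, 24 stayed called without library 1, 10 without library 2 and 14 without library 3, and each of the latter fits set 1 large library beside the 5 cells of library 1. Called in all 3 were Gm12863, Fabp3, Lao1, Lpl, Saa2, Cryab, Lgals3, Cpe and Slc5a8. Among those that lost the call without library 2, Cck had an adjusted p of 0.432, Folr1 0.627, Spp1 0.72, Car2 0.398, Abhd5 0.898, Tfcp2l1 0.898, Fbxw4 0.497, Mme 0.213, S100a6 0.749, Scara5 0.698 and Mt2, Btn1a1, Fasn and Ltf 1.00. Among those that lost it without library 3, it was 0.576 for Folr1, 0.472 for Car2, 0.503 for Abhd5, 0.337 for Gm266, 0.161 for S100a6, 0.916 for Fasn, 0.992 for Ltf and 1.00 for Cck, Mt2, Spp1 and Btn1a1. The log2 fold changes without library 2 and without library 3 were 1.47 and 1.42 for Folr1 and 1.62 and 1.5 for Car2, close to the value with all 3. Without library 3 they were smaller for Cck (0.84) and Spp1 (0.85) and larger in size for Scara5 (-3.04) and Mme (-2.81). Among the genes chosen after their values were seen, Glycam1, Cyp24a1, S100a8 and Atp2c2 were called in all 3, whereas Thrsp had 0.413 without library 2 and 0.362 without library 3, Rspo1 had 0.398 and 1.00, and Runx2 had 0.177 without library 3.

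**Figure D3:**
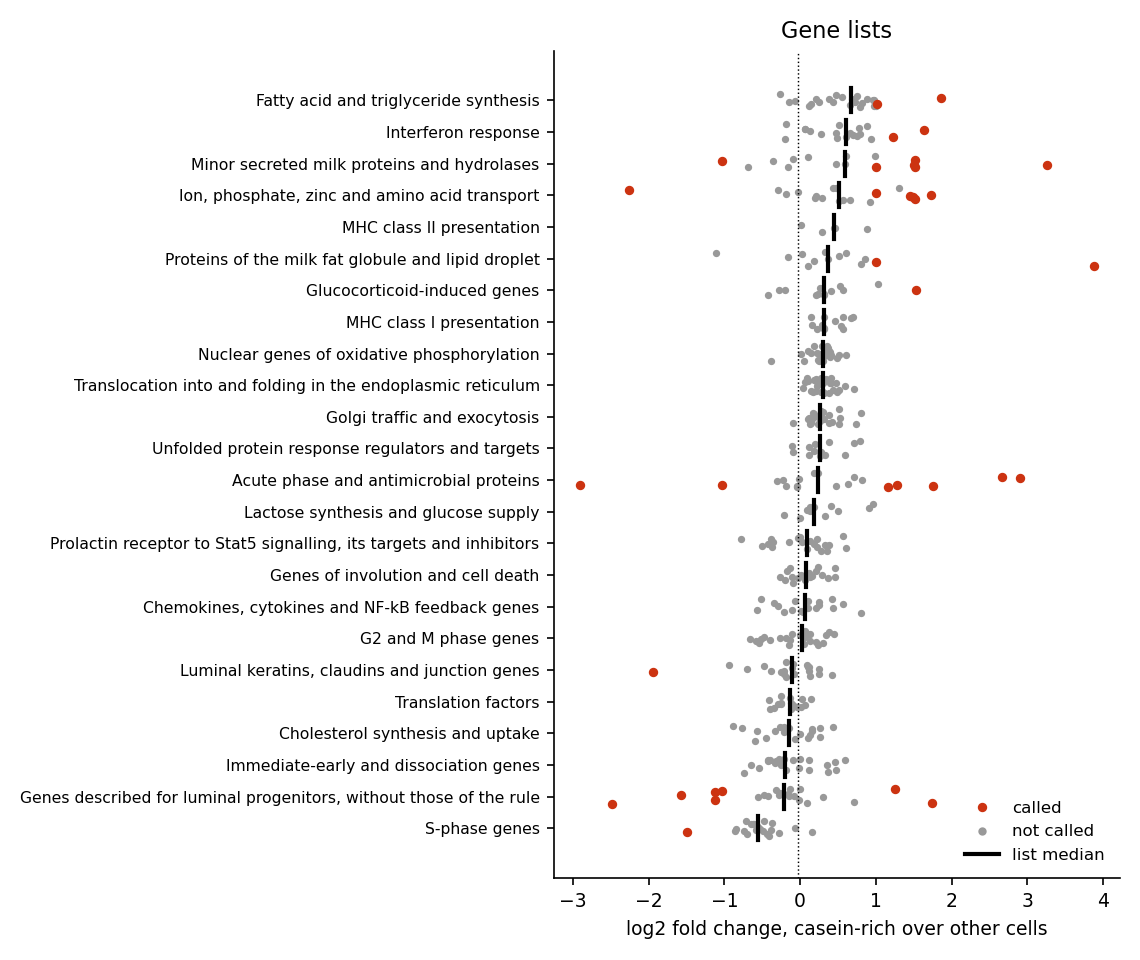
Log2 fold change of each tested gene (horizontal axis) in 24 gene lists (rows), casein-rich over other luminal progenitor cells by edgeR. Red points were called, grey points were not, black bars are list medians and the dotted line is the median over all genes tested. Called genes sit mainly in the milk protein, transport, defence and progenitor lists, while the endoplasmic reticulum and Golgi lists lie in a narrow band right of the dotted line but for 1 Golgi gene.

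Genes of DNA replication mostly had negative values that did not pass the test, and those of mitosis lay on both sides of 0. S-phase genes had 1 called lower, Chaf1b, and 0 higher of 22 tested, with 21 negative values and a median of -0.56. G2 and M phase genes had 0 of 24 called and a median of 0.03. A UMI of Top2a or Mki67, which mark dividing cells, was present in 12.7% of the casein-rich cells of library 2 (9.46 to 16.6%) and 8.32% of library 3 (5.95 to 11.2%), against 8.59% and 8.98% of the other progenitors. Thinned to 2000 UMIs, the shares were 7.90% and 6.22% against 4.79% and 6.10%. Ccnd1, cyclin D1, was at -0.78 and not called.

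Among the casein-rich cells, those with the most casein also had the most of several other milk genes. Cells at 10% or more casein (23 in library 2, 35 in library 3) were compared with those at 3 to 10% (339 and 422). Of 7760 genes tested by edgeR, 8 were higher (0.103%) and 1 was lower (0.0129%), 0.116% in all. Lao1 had 920 and 952 CPM against 177 and 305 (log2 1.97, SE 0.19, adjusted p = 0.000204). Spp1 had 3932 and 8086 CPM against 1024 and 4180 (log2 1.40, SE 0.16, adjusted p = 0.000907). Cck had 436 and 989 CPM against 128 and 420 (log2 1.42, SE 0.19, adjusted p = 0.00339). Cst3, the protease inhibitor cystatin C, had 397 and 2209 CPM against 251 and 842 (log2 1.12, SE 0.17, adjusted p = 0.00885). It did not rise with casein over all luminal progenitor cells of library 2, where cells under 0.1% casein had 2983 CPM. Casein-rich cells had 260 CPM against 1101 in the other progenitors of library 2, and 949 against 737 in library 3. That edgeR comparison did not call it (log2 -1.14, adjusted p = 0.0909).

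The remaining genes of this comparison rest on fewer molecules or need care. Fabp3 had 35 and 2 UMIs in the high-casein cells, which is 339 and 14.9 CPM against 38.4 and 3.17 (log2 3.05, SE 0.36, adjusted p = 0.00103). Folr1 was at the fold threshold (log2 1.01). Lalba, 1 of the 8 and a given marker of these cells, had 13994 and 11218 CPM against 5073 and 5787. Glycam1 was called, yet it was higher in library 2 (6053 against 774 CPM) and lower in library 3 (7.44 against 34.2 CPM, 1 UMI). Hspa1a, an inducible heat shock protein, was the 1 lower gene, with 3 and 6 UMIs in the high-casein cells, which is 29.1 and 44.6 CPM against 148 and 249 (fell by 2.45, SE 0.38, adjusted p = 0.0131). Its near-identical copy Hspa1b had 58.1 and 231 CPM against 138 and 223, so the pair together are uncertain. With 2 libraries the fit has 1 residual degree of freedom, and without the library block 1 gene was called higher and 0 lower.

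Several differences were already graded below the 3% threshold. Thrsp rose over the casein bins of library 2 from 11.5 CPM under 0.1% casein through 35.6, 74.0 and 150 to 297 at 3 to 10%. In library 3 the series was 21.2, 57.8, 89.4, 131 and 223. Slc5a8 ran the other way, from 148 through 107, 62.2 and 44.5 to 13.0 CPM in library 2 and from 58.5 to 13.9 in library 3. Lgals3 went from 168 to 11.7 CPM and from 221 to 26.0 over the same bins, and Runx2 from 44.9 to 3.91 and from 23.1 to 2.54. Lalba differed between the libraries: in library 2 it was 1869, 1841, 1440 and 1827 CPM in the 4 bins under 3% and 5073 above, whereas in library 3 it climbed at each step from 637 through 1083, 1799 and 2888 to 5787. Other called genes were not graded in library 2. There Cck ran from 135 CPM through 87.4, 66.9 and 48.6 to 128 at 3 to 10%. Spp1 ran from 1236 through 1094, 304 and 542 to 1024. Both were thus no higher at 3 to 10% than under 0.1% casein. Btn1a1 fell from 486 to 341 CPM before reaching 600. In library 3 Cck climbed from 42.1 to 420, Spp1 from 427 to 4180 and Btn1a1 from 317 to 1185. These bins have 1 sum per library and no test.

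**Figure D4:**
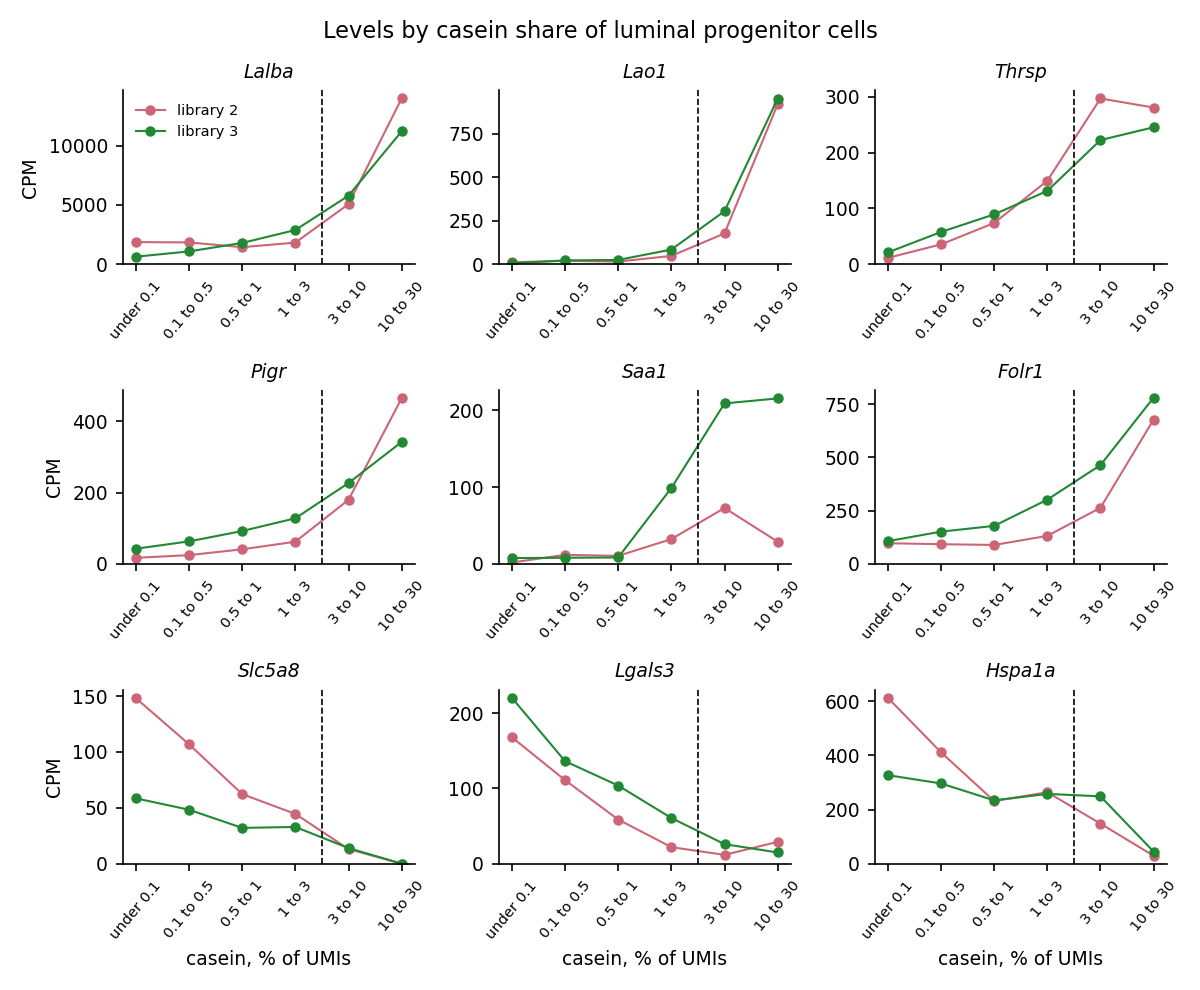
Levels of 9 genes (vertical axes, CPM of the UMIs outside the rule genes) in bins of the casein share of luminal progenitor cells (horizontal axes, % of UMIs), 1 line for each of libraries 2 and 3. The dashed line is the 3% threshold and the rightmost bin holds 23 and 35 cells. Lalba, Lao1, Thrsp and Pigr are higher in the 3 to 10% bin than in each bin below it, and Slc5a8 and Lgals3 are lower, in both libraries.

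The casein-rich cells of libraries 2 and 3 were also set side by side. Each side is 1 sum, so there is no test. Of 3167 genes at 50 CPM or more in either sum, 47 were at least 2-fold higher in library 2 and 109 in library 3 (4.93% in all). In the other luminal progenitor cells, whose sums are larger, the counts were 9 and 39 of 3175 (1.51%). Genes induced by interferon were among those higher in library 3. Ifi27l2a had 1.22 CPM in library 2 and 147 in library 3, Irf7 7.33 and 117, and Gbp2 20.8 and 195. The other progenitors differed in the same direction, with 2.63 and 101 CPM of Ifi27l2a and 17.1 and 111 of Gbp2.

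Between the classes within a library, the interferon list had 2 called higher, Ifit3 and Ifit1, and 0 lower of 19 tested, with a median of 0.61. MHC class I and class II presentation had 0 of 13 and 0 of 5 called, with medians of 0.32 and 0.44.

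Other genes differed between the 2 libraries by unequal amounts in the 2 classes. Spp1 had 1208 and 4487 CPM in the casein-rich cells and 769 and 696 in the others. Apod, apolipoprotein D, had 6.11 and 172 CPM against 14.3 and 29.5, so it was lower in the casein-rich cells of library 2 and higher in those of library 3. Fcgbp, a mucin-like secreted protein, had 445 and 3270 CPM against 1544 and 3689. Glycam1 stood the other way, as given above. The alpha and beta globins Hba-a1 and Hbb-bs had 164 and 143 CPM in the casein-rich cells of library 2 and 2.34 and 2.92 in library 3, and both were called higher against the other progenitors, which had 13.6 and 9.88 CPM in library 2 and 2.09 and 2.99 in library 3. In library 2, 1 cell held 263 of the 269 Hba-a1 UMIs (97.8%), and 1 cell held 229 of the 235 Hbb-bs UMIs. Without library 2 their log2 fold changes were 0.23 and 0.05.

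**Figure D5:**
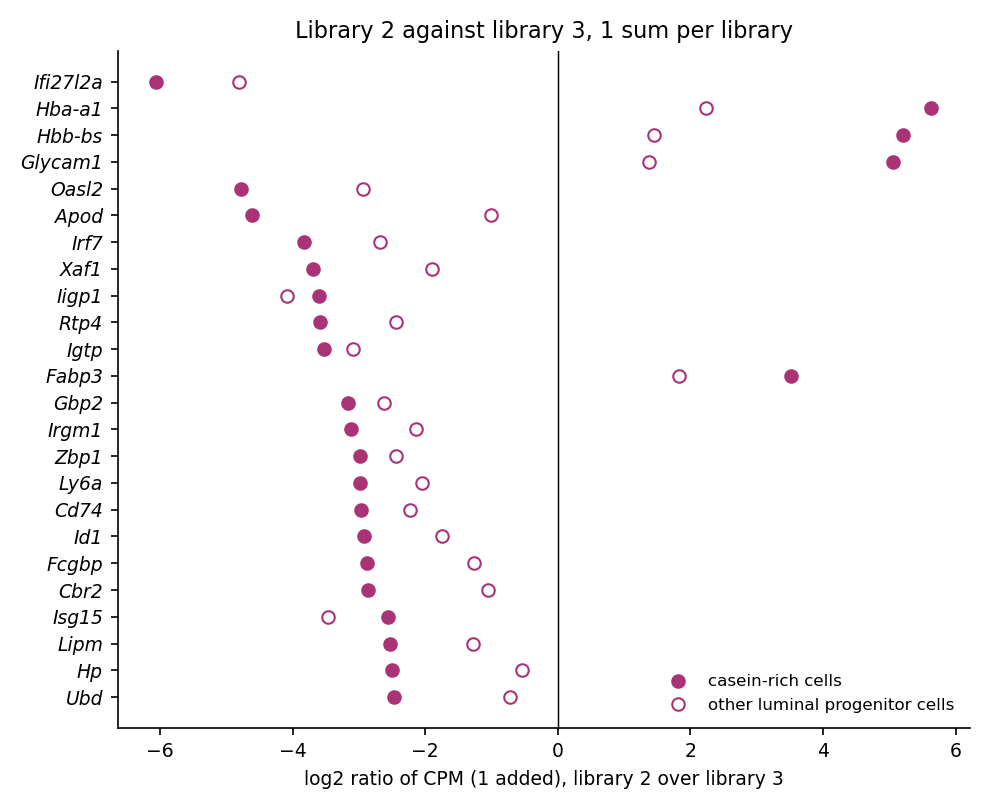
Log2 ratio of CPM with 1 added, library 2 over library 3 (horizontal axis), for 24 of the genes with the widest ratios in casein-rich cells (rows). Filled points are the casein-rich cells and open points the other luminal progenitor cells, 1 sum per library and no error bar. Interferon-induced genes lie left of 0 in both classes, whereas Glycam1, Hba-a1, Hbb-bs and Apod lie much farther from 0 in the casein-rich cells.

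Among markers of other cell types, the neutrophil sum was higher in the casein-rich cells of libraries 2 and 3 than in the other progenitors. The erythroid sum was higher in library 2 and close to that of the other progenitors in library 3, where it rested on 14 UMIs. The 5 erythroid markers summed to 0, 308 and 7.62 CPM of all UMIs in libraries 1, 2 and 3 against 3.34, 24.9 and 6.70, with the library 2 globins almost all in 1 cell per gene, as given above. The neutrophil sum was 0, 36.5 and 39.2 CPM against 2.69, 6.49 and 7.39, all of it S100a8 in the casein-rich cells. The 11 basal markers summed to 449, 606 and 418 CPM of all UMIs in libraries 1, 2 and 3, against 262, 623 and 417 in the other progenitors and 17010 to 19068 in basal cells. The 11 hormone-responsive markers summed to 385, 413 and 356 CPM against 444, 409 and 357. Of 8 fibroblast markers, the sum was 0, 37.7 and 14.1 CPM against 18.3, 31.8 and 46.7. Adipocyte markers (Adipoq, Plin1, Lep, Retn, Cfd and Pparg) had no UMI in any casein-rich cell. Doublet scoring took out 0, 2 and 6 of the casein-rich cells, and the shares of luminal progenitor cells were then 0.162%, 22.5% and 14.2%.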

How the data were processed

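The deposited tables hold raw UMI counts per gene and cell, made by the authors with Cell Ranger 2.1.0 on mm10, per the submitters' processing notes. Other settings were not given in the sources used here. No column was left unused. UMIs were summed per library over casein-rich and other luminal progenitor cells, and every library with 5 or more casein-rich cells entered. Rule genes were removed first. The sums were tested two-sided with edgeR 4.0.16 (quasi-likelihood, TMM, filterByExpr, library as block), with DESeq2 1.42.0 as an alternative. The library block is by construction, since both sums come from 1 suspension. Deviations of the classes correlated at 0.418, 0.424 and 0.526 within libraries and between -0.424 and 0.236 across them. SEs are the log2 fold change over the square root of F. Named genes were the 12 highest and 8 lowest called genes with 1 sign in all libraries and 50 CPM or more, up to 3 per list, and 10 fixed genes. Doublets were scored with Scrublet (scanpy 1.11.5) and removed in an alternative only. Shares use exact binomial intervals. Scripts were tested on simulated data. Promoters are RefSeq's, positions GENCODE's, both GRCm38. Members and lists were chosen with earlier results of these data known. The results of some genes are not reported here.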

Additional observations from a re-analysis of the deposited data

How the results depend on the processing

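With DESeq2 51 genes were higher and 65 lower in the casein-rich cells, and its median over all genes was 0.10 against -0.02. Without the replicate block, which leaves the library differences in the error, the counts were 7 and 10. Leaving out 1 library in turn gave 39 to 136 higher and 31 to 130 lower. With a casein threshold of 1%, 97 were higher. Between casein-rich cells of high and low casein, DESeq2 called 4 higher and 0 lower (58 genes at an unadjusted p below 0.05), the fit with no replicate block 1 and 0 (310 at that p), no filter on low counts 12 lower, and thinned sums 2 lower. Leaving out a library was not possible there, since 1 library leaves no residual degrees of freedom. The shares of luminal progenitor cells in libraries 1, 2 and 3 were 1.15%, 46.5% and 34.2% at 1% and 0%, 11.4% and 6.74% at 5%; requiring 10 progenitor UMIs gave 27.2% and 17.1% in libraries 2 and 3.

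Of 595 values of named genes under an alternative, 499 kept their direction and side of the threshold, 83 kept the direction only, and 13 turned, in 3 genes that were not called. Stat5b ranged from -0.028 (without library 2) to 0.44 when 1 library was left out, Jak2 from -0.61 to 0.52 and Lcn2 from -0.49 to 0.28. Jak2 was at -0.073 with DESeq2, -0.072 with library totals, -0.0345 with no filter and -0.0272 against other cells under 0.5% casein. Lcn2 was at 0.19 with library totals, 0.30 in thinned sums, 0.28 with sums of 20 or more cells, 0.37 at a 5% threshold and 0.19 with 10 progenitor UMIs. The TMM factor of the library 1 casein-rich sum, 14796 UMIs, was 1.70 against 0.834 to 0.95 elsewhere; TMMwsp factors, an alternative chosen after seeing the data, gave 166 higher and 179 lower. The cause of these changes was not tested. The 5 cells of library 1 limit what that library adds: a gene with no UMI there is not detectable at that depth.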

Other observations

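Casein-rich cells were also found outside the luminal progenitor rule. Of 973 kept cells with 3% or more casein, 149 did not meet it (1, 104 and 44 in libraries 1, 2 and 3). Of these, 92 had fewer than 5 UMIs of the progenitor genes, 48 had too many basal UMIs and 9 too many hormone-responsive UMIs for the ratio. By the same kind of rule, 4 of them were basal cells and 0 hormone-responsive.

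The TTCNNNGAA element was in the 250-base promoter window of 10 of 109 genes called higher with a promoter in the table (9.17%), 13 of 128 called lower (10.2%) and 593 of 8288 genes tested (7.15%). TGTTCT was in 24 (22.0%), 15 (11.7%) and 1021 (12.3%). These are counts with no test.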
